A study of Mus musculus with 4 samples.

Results

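The colon of wildtype (WT) mice on day 7 of dextran sulfate sodium (DSS) was compared with the colon of naive WT mice. The comparison rests on 2 of the 4 arrays of the series, 1 for each side, chosen by their titles. The mice were C57BL/6 males with intact Pla2g10, the gene of a secreted phospholipase A2, aged 9 weeks by a tag that the labels file under sex and 8 weeks by the growth protocol. The naive group drank water without DSS as far as the labels state, and the treated group received 1% (w/v) DSS in its drinking water, after which the large intestine was removed. Each array carried Cy3-labelled RNA mixed from the colons of 3 mice. The remaining 2 arrays hold the same treatments in mice lacking Pla2g10 (KO) and are used here only to set values side by side.

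DSS is a sulfated polysaccharide that damages the lining of the colon and lets bacteria reach the tissue beneath it. Neutrophils and monocytes then enter the wall, cytokines and interferons act on the epithelium, proteases open the matrix, and the crypts regenerate. Whole colon holds epithelium, muscle, nerves, vessels, fat and immune cells together. A lower signal of a cell type's genes can therefore come from fewer such cells or from less RNA per cell, which cannot be told apart here.

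With 1 pooled array per side there was no replicate of either condition, so every difference below is a ratio of 2 arrays and carries no test. Signals are given relative to the array's 75th percentile, so that a signal of 1 equals that percentile. A gene was counted as higher or lower when the arrays were at least 2-fold apart and the brighter one was well above background. Where the dimmer array was not well above background, the fold was taken against the dimmest signal that this array still measured above background, or the gene's own where that was higher, and is written as at least. Of 1367 members of 63 gene lists, 1271 were well above background on the brighter array and are called measured. A gene that is detected on 1 array alone enters only through that array, so counts over measured members describe those genes and not the whole list. Signals of different genes come from different probes and are not compared with each other.

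A band of the slide measured less precisely than the rest, and this bears on every list below. For 399 probes printed at several places, the repeat spots could be compared within an array. In slide rows 190 to 410 of 532 (the rows above 190, up to and with 410), their SD around the probe's median was 0.266 in naive and 0.252 in DSS on the log2 scale, against 0.148 and 0.162 in the other rows. In the naive array 28 of 1575 repeat spots inside the band lay over 2-fold from their probe's median, against 3 of 2299 outside it. The band held 41.9% of all spots but 65.2% of the 554 spots that were 4-fold higher with DSS and 86.3% of the 380 that were 4-fold lower. These rows were picked after the values were seen. Counts over all genes are therefore given with and without them, and list counts without them only for some lists. A gene whose chosen probe has spots only inside them is marked with a dagger (†).

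**Figure D1:**
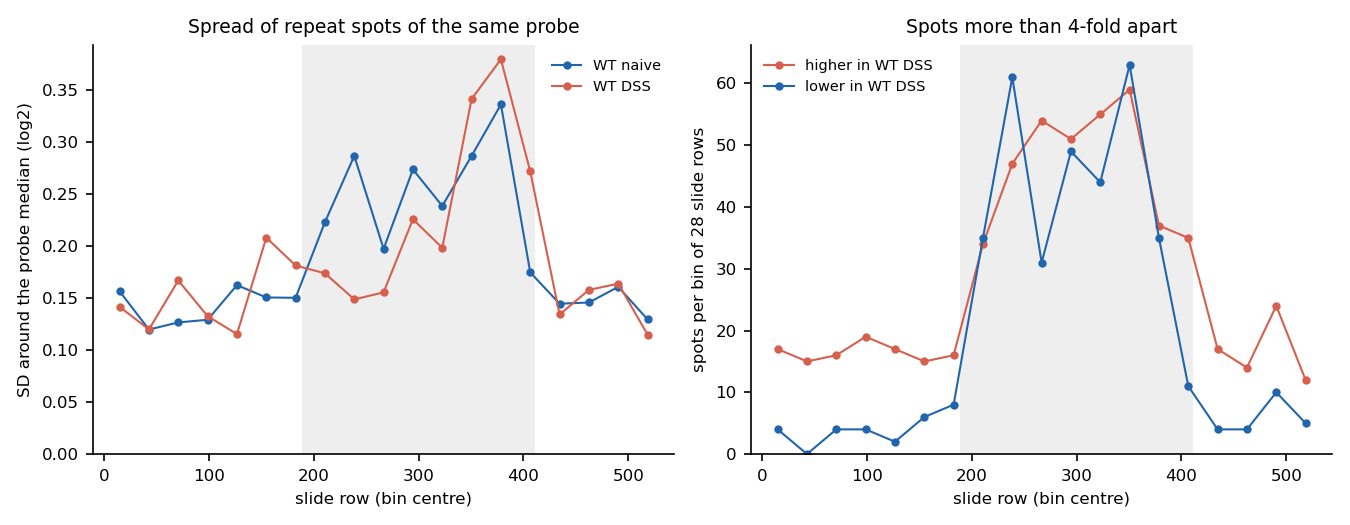
Left, SD of repeat spots around their probe's median (log2) against slide row for the WT naive and WT DSS arrays, and right, the number of spots at least 4-fold higher or lower with DSS per bin of 28 rows, with rows 190 to 410 shaded. Over all shaded rows the SD is 0.266 and 0.252, over the other rows 0.148 and 0.162, and 328 of the 380 spots that are 4-fold lower lie inside.

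Of 21617 genes, 771 were higher with DSS (3.57%) and 1140 lower (5.27%), 8.84% in all. Without rows 190 to 410, 361 of 13420 genes were higher (2.69%) and 587 lower (4.37%), 7.06% in all. From spots inside the rows, 523 of 11254 genes were higher (4.65%) and 783 lower (6.96%), 11.6% in all. These shares, and the median log2 ratio of -0.01 over all genes, are the background against which each list is read. With all spots, 206 genes (0.953%) lay 4-fold above naive and 159 (0.736%) 4-fold below, 1.69% in all. Outside the band the numbers were 95 (0.708%) and 22 (0.164%), 0.872% in all, so that most of the large losses came from the noisy rows while large gains were found in both parts. The ratios also moved with brightness. In the dimmest of 5 equal groups of genes the median log2 ratio was -0.21, and in the brightest it was 0.21. After quantile normalization these medians were -0.04 and 0.01. For the oxidative phosphorylation, ribosomal, glycolysis, cholesterol, stress response, junction and reference lists the quantile value is given beside the median. The class I, absorptive colonocyte and enteroendocrine lists are given with it as well.

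**Figure D2:**
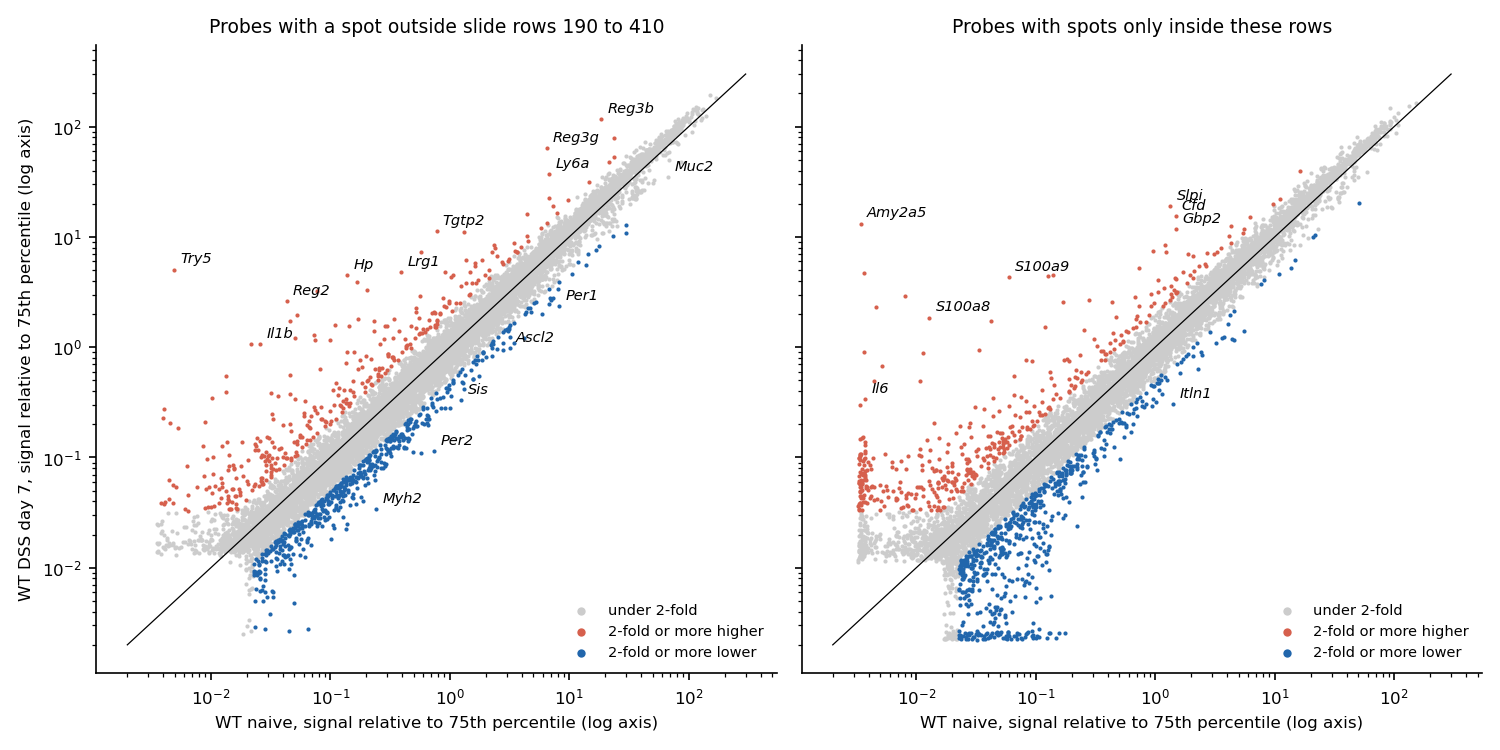
Relative signal of each gene in WT naive (x axis) and WT DSS day 7 (y axis), both on log axes, for probes with a spot outside slide rows 190 to 410 (left) and for probes with spots only inside (right). Genes at least 2-fold higher are red and at least 2-fold lower blue, and the cloud of dim genes far from the diagonal is denser on the right.

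Both arrays carried the defining markers of colon. The colonocyte carbonic anhydrase Car1† gave signals of 94.9 in naive and 110.2 in DSS, the keratin Krt20† 51.6 and 71.3, and the mucin Muc2 67.8 and 35.1. Hoxb13, a gene of the most distal gut, was at 33.6 and 25.9, and Cdx2†, which sets intestinal identity, at 6.87 and 10.5. Of 25 measured Hox, Cdx and related position genes none was higher and 2 were lower, Hoxd12 from 0.308 to 0.114 and Hoxd11† from 0.370 to 0.119. A second probe of Hoxd11 outside the noisy rows stood at a log2 ratio of -0.45. The other measured members of this list stayed under 2-fold; Hoxc10†, which is not in it, is given with the lowest genes. Small intestinal genes included Sis, the brush border sucrase, which was lower with DSS (1.25 and 0.331, 3.77-fold), and the lactase gene Lct (at least 3.13-fold lower). Lyz1, the lysozyme of Paneth cells, was higher (3.93 and 8.06).

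The acute phase proteins, plasma proteins that inflamed tissue also makes locally, were mostly higher with DSS. Of the measured members, 10 of 13 were higher and none lower, with a median log2 ratio of 1.88 (8 of 10 and 1.96 outside the noisy rows). Haptoglobin, Hp, which binds free haemoglobin, had a signal of 0.139 in naive and 4.49 in DSS colon, 32.3-fold higher. Lrg1, a leucine-rich glycoprotein of serum, went from 0.392 to 4.82, and the complement protein C3 from 4.42 to 16.2. The serum amyloid genes split. Saa3, the form made at sites of inflammation, was 16.2-fold higher (0.203 and 3.30), while the epithelial forms Saa1† (64.2 and 82.3) and Saa2 (41.0 and 55.4) were already bright in naive colon and stood under 2-fold apart. Lcn2, which starves bacteria of iron, was 4.09-fold higher and the ferroxidase Cp 2.43-fold. Pigr, the epithelial transporter of IgA, was the single member below 0, at -0.55.

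Many neutrophil genes were not well above background in naive colon. Of 25 measured members, 15 were well above background in naive and 25 in DSS, 18 were higher and none lower. The calprotectin subunits led, S100a9† at 0.0596 and 4.34 and S100a8† at least 113-fold higher. Clec4d and Clec4e, lectin receptors for microbial glycolipids, were at least 20.9-fold higher and at least 12.6-fold higher. Receptors that steer these cells were also higher: the formyl peptide receptors Fpr1 (at least 3.07-fold higher) and Fpr2 (at least 6.20-fold higher) and the interleukin-8 type receptor Cxcr2† (at least 2.19-fold higher). Other members were closer to their naive level. Lactoferrin, Ltf, was 2.26-fold higher, while the cathelicidin Camp† (0.77), the elastase Elane† (-0.10) and Csf3r (-0.69), the receptor of the neutrophil growth factor, stayed under 2-fold. With dim genes at their bounds the list median was 1.23, and outside the noisy rows 9 of 13 were higher.

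Chemokines, the secreted proteins that draw leukocytes in, were higher in 7 of 14 CXC and 11 of 15 CC members, with none lower. The ligands of Cxcr2 that attract neutrophils were dim in naive colon, 3 of them not well above background: Cxcl1 was at least 13.8-fold higher, Cxcl2 at least 3.45-fold higher, Cxcl3 at least 3.79-fold higher, and Cxcl5† went from 0.168 to 2.57. The interferon-induced ligands of Cxcr3 were higher as well, Cxcl10 at 0.169 and 3.93 and Cxcl9† at 0.0338 and 0.939, with a second Cxcl9 probe outside the noisy rows at a log2 ratio of 4.27. The third of that group, Cxcl11, was at 74.0 and 72.5 on its brightest probe, under 2-fold, with another probe at -0.97 on the log2 scale. Whether Cxcl11 yields a working protein in this strain was not tested. Among monocyte attractants, Ccl2 went from 0.110 to 1.61, Ccl7 from 0.137 to 0.896 and Ccl8 from 0.579 to 7.27. The homeostatic epithelial chemokines Ccl25† (0.08) and Ccl28 (-0.09), which bring lymphocytes to the gut, and Cxcl14 (0.14) stayed near 0. Of the chemokine receptors 6 of 19 were higher, and 2 of 11 outside the noisy rows. The 6 included Ccr2 (0.0473 and 0.174), the receptor for Ccl2, and Ccr7 (0.159 and 0.361), which guides dendritic cells to lymph nodes.

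Of the interleukin-1 family, 5 of 15 genes were higher. Il1b had signals of 0.0259 and 1.06, 41.0-fold higher, whereas Il1a† was not well above background in naive colon and gave no fold above 1. Genes that restrain the family were higher too: the decoy receptor Il1r2† was at least 5.93-fold higher and Il18bp, which neutralises interleukin-18, went from 0.157 to 0.897. The receptor antagonist Il1rn† was at 0.93, under 2-fold. Il33, an alarm cytokine of stroma and epithelium, went from 0.307 to 0.865. Its receptor Il1rl1† was at 3.65, but a probe of that gene outside the noisy rows gave 1.25, so its size depends on the probe. Il18 (6.25 and 11.3), Casp1 (18.8 and 23.8) and the adaptor Pycard (20.2 and 35.3) were bright in both pools and under 2-fold apart.

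The interleukin-6 family had 4 of 18 members higher, 3 of them in the noisy rows. Il6† was at least 20.5-fold higher, and Il11, made by stromal cells of injured gut, went from 0.0725 to 1.29. The feedback inhibitors Socs3† (1.23 and 7.33) and Socs1† (0.253 and 1.44) were 5.95-fold and 5.69-fold higher. The receptors and signal carriers were not: Il6st, the shared receptor chain, was at 0.04, Il6ra at -0.48, Lifr at -0.66 and Stat3 at 0.22, while Osmr stood at 0.80.

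Tnf, the founding ligand of the tumour necrosis factor family, went from 0.0331 to 0.222, 6.72-fold higher, and 7 of 25 members of its list were higher. They included Icam1 (at least 3.72-fold higher), an adhesion molecule that leukocytes bind, Tnfaip2 (1.87) and Tnfsf10 (1.33), the death ligand TRAIL. The inhibitors of NF-kB Nfkbia (0.37) and Tnfaip3† (0.18) and the subunits Nfkb1 (-0.09) and Relb (-0.12) lay close to 0. Of pattern recognition receptors 6 of 22 were higher, among them the fungal receptor Clec7a (0.282 and 1.19), the nucleic acid sensor Zbp1† (1.20 and 8.38) and Cd14 (2.12 and 4.28). Tlr2 (0.35) and Tlr4 (0.51) were under 2-fold apart.

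**Figure D3:**
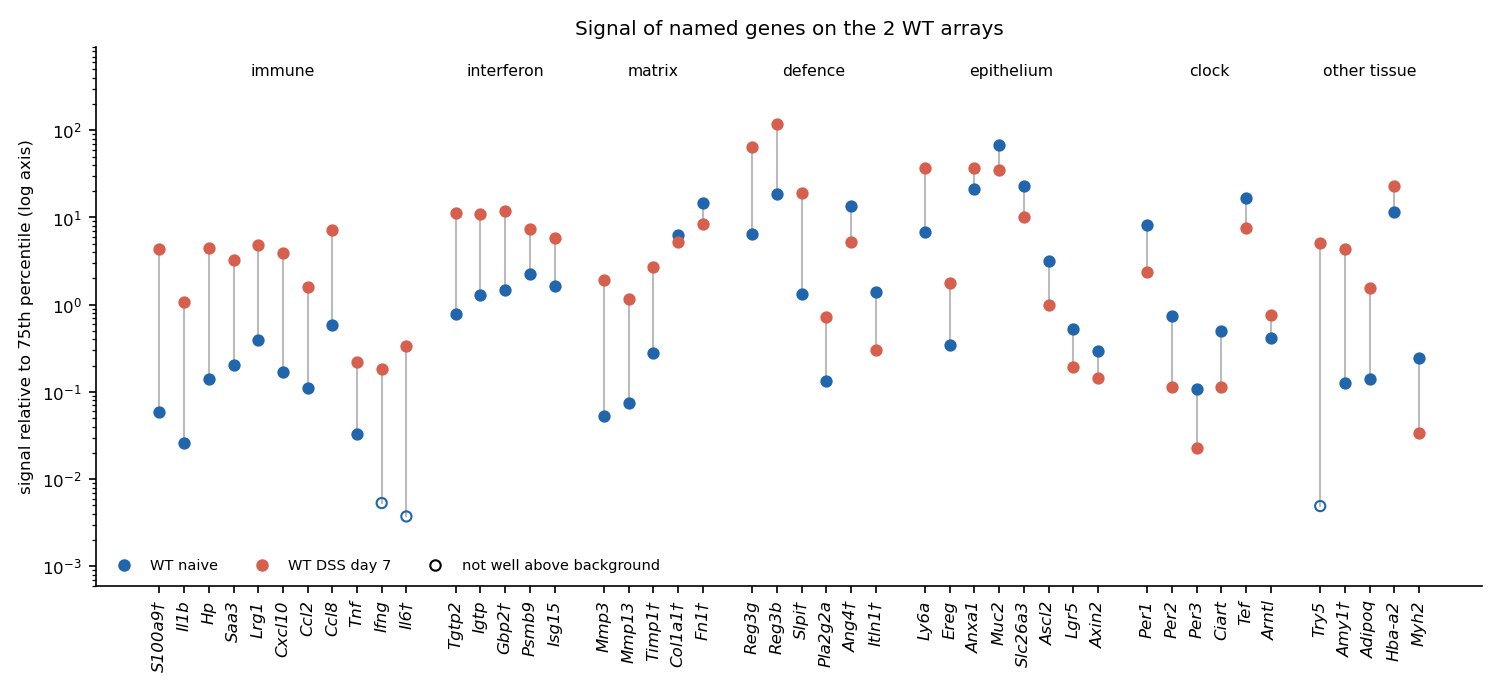
Relative signal (log axis) of selected genes on the WT naive array (blue) and the WT DSS array (red), 1 pooled array each, joined by a line; open points were not well above background and a dagger marks probes with spots only in slide rows 190 to 410. Reg3b reaches 118 with DSS from 18.6, while Ascl2, Lgr5, Per1, Per2 and Per3 lie lower with DSS.

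Macrophage and monocyte genes were higher in 11 of 27 cases with a median of 0.83, and none was lower. Chil3, a chitinase-like protein, was at least 49.4-fold higher, Fcgr4, an activating antibody receptor, went from 0.106 to 0.413 and Cd68 from 0.784 to 1.76. The scavenger receptors Marco† (2.40) and Msr1 (1.23) were higher too, while Itgam (-0.01), a shared myeloid integrin, and Plac8† (0.71) did not pass 2-fold. Cx3cr1 was at 0.01, Mrc1 at 0.22 and Mertk†, which serves the clearance of dead cells, at -0.94. The complement C1q chains, made by macrophages, lay above 0 and under 2-fold (C1qa† 0.83, C1qb 0.87, C1qc 0.81).

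Few lymphocyte genes passed 2-fold. Ifng, the cytokine of Th1 and NK cells, was at least 11.3-fold higher (0.185 in DSS), Il22† went from 0.0288 to 0.0724 and the granzyme Gzmb from 0.125 to 0.260. The T cell receptor chains stood at 0.18 for Cd3e, 0.30 for Cd3g and 0.46 for Cd3d†, and Cd4 at 0.26. Of 26 measured members 5 were past 2-fold, and each of these encodes a secreted protein. In B and plasma cells 0 of 15 were past 2-fold in either direction, and Pax5 (-0.73) and the plasma cell receptor Tnfrsf17† (-0.96) lay below 0. Mast cell and eosinophil genes were higher in 8 of 14 cases, and in 4 of 10 outside the noisy rows. Mcpt1 was at least 2.76-fold higher and Mcpt4 went from 0.0323 to 0.0989, with the eosinophil attractant Ccl11† from 0.379 to 0.770. The tryptase Tpsb2 (-0.21) and the eosinophil genes Prg2 (-0.02) and Siglecf (0.12), whose slide rows are not marked here, did not pass 2-fold. Kit†, the receptor mast cells share with the pacemaker cells of the gut, was at -0.84.

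The GTPases that interferon-gamma induces, which coat and break vacuoles of intracellular microbes, were mostly higher with DSS. Of the measured members, 13 of 18 were higher, none lower, and the median was 1.91 (9 of 13 and 1.85 outside the noisy rows). Tgtp2 went from 0.776 to 11.4, Igtp from 1.30 to 11.1 and Gbp2† from 1.49 to 11.8. All 3 were well above background on both arrays. Irgm2 (4.50-fold), Irgm1 (3.38-fold) and Iigp1 (6.08-fold) were higher as well. Gvin1, a giant relative, was the single member below 0, at -0.47.

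The promoters of these genes are shown because most of the genes were higher and RefSeq gives their start sites. Of the 18 measured GTPases 10 had a promoter in the RefSeq table (GRCm38.p6), and the 250 bases before the start were searched on both strands. All 10 held the interferon-stimulated response element (TTTC and TTTC with NN between them), which 3.04% of 27025 promoters of that length held, and 6 held the gamma-activated site TTCNNNGAA, which 7.18% held. Among the 10 was Gbp2b†, at a log2 ratio of 0.12, which did not pass 2-fold. Each is printed 5′ to 3′ on the gene's strand, with matches to either motif in capitals.
Igtp, chr11:58199306-58199555, + strand: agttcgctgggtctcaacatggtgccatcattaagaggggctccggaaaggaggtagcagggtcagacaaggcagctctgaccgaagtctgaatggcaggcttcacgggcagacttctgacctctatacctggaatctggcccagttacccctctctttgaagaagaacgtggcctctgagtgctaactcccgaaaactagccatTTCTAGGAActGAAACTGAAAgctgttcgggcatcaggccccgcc
Tgtp2, chr11:49064213-49064462, - strand: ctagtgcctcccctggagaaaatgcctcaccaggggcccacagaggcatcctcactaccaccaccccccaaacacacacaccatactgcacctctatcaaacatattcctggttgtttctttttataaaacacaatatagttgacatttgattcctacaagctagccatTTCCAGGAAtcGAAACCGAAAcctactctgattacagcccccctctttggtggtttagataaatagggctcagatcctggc
Gbp2, chr3:142620413-142620662, + strand: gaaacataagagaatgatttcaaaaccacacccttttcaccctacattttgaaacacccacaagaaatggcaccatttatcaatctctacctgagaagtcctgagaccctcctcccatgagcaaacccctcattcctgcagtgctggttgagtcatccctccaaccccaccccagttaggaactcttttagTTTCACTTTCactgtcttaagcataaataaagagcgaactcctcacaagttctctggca
In Igtp and Tgtp2 the gamma-activated site lies before the interferon element without overlapping it, and in Gbp2† the interferon element stands alone in this window. A match describes the letters of the reference sequence and is no measurement of binding.

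Promoters of 2 chemokines are shown for comparison, with the same interferon element capitalised in Cxcl10 and the kappa B site (GGGA, any base, TTTCC) capitalised in Cxcl1. Of 10 CXC chemokine genes with a promoter in the table, 3 (Cxcl1, Cxcl2 and Cxcl3) held the kappa B site as spelled, against 0.337% of all promoters.
Cxcl10, chr5:92348890-92349139, - strand: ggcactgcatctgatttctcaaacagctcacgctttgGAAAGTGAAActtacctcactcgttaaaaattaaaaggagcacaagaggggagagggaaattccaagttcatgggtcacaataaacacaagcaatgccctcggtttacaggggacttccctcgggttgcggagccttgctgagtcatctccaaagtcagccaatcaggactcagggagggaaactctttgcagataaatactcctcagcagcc
Cxcl1, chr5:90890995-90891244, + strand: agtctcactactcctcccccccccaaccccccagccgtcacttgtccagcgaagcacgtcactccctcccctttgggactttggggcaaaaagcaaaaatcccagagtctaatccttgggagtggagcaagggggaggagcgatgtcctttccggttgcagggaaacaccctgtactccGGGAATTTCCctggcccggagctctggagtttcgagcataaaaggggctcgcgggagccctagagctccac
The signals of these genes were those given above, Cxcl10 at 0.169 in naive and 3.93 in DSS colon and Cxcl1 not well above background in naive colon and at 0.227 with DSS.

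Genes of the type I interferon response, which block viral replication, were higher in part. Of 27 measured genes 11 were higher, the median was 0.85 and 25 lay above 0. Isg15, a ubiquitin-like modifier, went from 1.64 to 5.82, Ifitm3 from 3.45 to 8.83 and Irf1† was 2.02-fold higher. Mx1 (-0.14) and Mx2† (-0.64) were below 0, and Oas1a (0.64) and Irf7 (0.21) under 2-fold. Whether Mx1 and Mx2† yield working proteins in this strain was not tested.

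Genes of antigen presentation lay mostly above 0. In the class I pathway all 18 members lay above 0 and 4 passed 2-fold: the peptide pump Tap1 (0.111 and 0.473), the transactivator Nlrc5† (0.113 and 0.411) and the immunoproteasome subunits Psmb9 (2.24 and 7.38) and Psmb8† (2.09 and 6.74). The presenting molecules themselves were bright and closer together, with H2-K1 at a log2 ratio of 0.15 and B2m at 0.68. The class I median was 0.56, and 0.43 with quantile normalization, where the reference genes had 0.40 and 0.20. A member above 0 by less than the reference genes cannot be told apart from scaling. In the class II list 1 of 15 passed, the checkpoint ligand Cd274 (0.176 and 0.766). The class II chain H2-Eb1 was at 0.51 and H2-Aa at 0.69. Of complement genes 5 of 22 were higher and 1 lower. They were C2 (1.19), the anaphylatoxin receptor C5ar1† (1.11), properdin Cfp (2.01-fold), C3 and Cfd†. Cfd†, adipsin, is also a fat cell gene and appears with that list below. C7† was lower (-1.74).

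Enzymes that immune activation induces were among the higher genes. Ido1, which degrades tryptophan, went from 0.0459 to 0.378, Nos2, which makes nitric oxide, from 0.520 to 2.26, and Acod1, which makes itaconate, was at least 12.8-fold higher. The arginases stood at 0.76 for Arg1† and 1.01 for Arg2, which passed 2-fold. Duoxa2, the maturation factor of the epithelial hydrogen peroxide source, went from 1.07 to 4.50, while the oxidase gene Duox2 was at 0.22 on its brightest probe and -0.68 on another. The haem oxygenase Hmox1 went from 0.320 to 0.682. Classical Nrf2 target genes did not pass 2-fold (Nqo1† 0.08, Gclc -0.19, Txnrd1 0.37), and the metallothioneins were lower by less than 2-fold (Mt1 -0.46, Mt2 -0.62).

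Matrix-degrading enzymes were among the larger ratios. The stromelysins Mmp3 (0.0524 and 1.94) and Mmp10† (0.0426 and 1.73) and the collagenase Mmp13 (0.0751 and 1.16) were 15.4 to 40.6-fold higher. Of 24 measured members of the list 10 were higher (4 of 12 outside the noisy rows), including the inhibitor Timp1† (0.280 and 2.68), the aggrecanase Adamts4† (3.01) and the plasminogen activator Plau (1.80). The gelatinase Mmp2 (-0.07) and the membrane protease Mmp14† (0.08) were near 0, and Timp2 (18.7 and 15.5) and Timp3† (4.35 and 4.10) were bright and little apart.

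The fibrillar collagens were not higher. Of 25 collagen and cross-linking genes 1 was higher and 3 lower, and the median was -0.32, with 5 above 0. The higher one was Lox†, a cross-linking enzyme, at least 2.21-fold higher, and its probe outside the noisy rows gave a log2 ratio of 0.44. Col1a1† was at 6.22 and 5.20, Col1a2 at 19.5 and 15.7 and Col3a1† at 14.4 and 14.2. Col6a3, a chain of the microfibrils around cells, was at -0.89 and Col6a4 was lower (0.0802 and 0.0255). Fibronectin, Fn1†, stood at -0.80 and periostin, Postn, at -0.45. The KO pools gave a median of 0.76 for the same list, with Col1a1† at 1.14 and Fn1† at -0.20. Whether the genotypes differ in this was not tested.

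Among other stromal genes, the hyaluronan synthases Has1† (at least 4.23-fold higher) and Has2 (at least 2.45-fold higher), podoplanin (Pdpn, 0.993 and 2.50) and Igfbp4 (1.26) were higher. Ccn2†, a connective tissue growth factor, was 2.15-fold lower and Angptl7† 5.31-fold lower. The fibroblast markers Pdgfra (-0.01), Lum† (0.17) and Dcn (0.35) stayed close to 0. On vessels the leukocyte-binding Selp (0.0328 and 0.138), Icam1 and Madcam1 (0.306 and 0.828), the docking site of gut lymphocytes, were higher. The endothelial lineage genes were not: Cdh5† stood at -0.08, Pecam1 at -0.49 and Kdr at 0.20, and Vegfa was at -0.82. Serpins of the a3 clade, which inhibit serine proteases, were dim in naive colon, with Serpina3n at 0.0821 and 0.632 and Serpina3f at least 5.89-fold higher.

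Genes of secreted defence proteins of the epithelium went in both directions. Of 22 measured genes 11 were higher and 2 lower, and outside the noisy rows 8 and 1 of 17. Reg3g and Reg3b, lectins that kill Gram-positive bacteria or bind them, went from 6.47 to 63.9 and from 18.6 to 118, while Reg3a (0.38) and Reg4 (-0.30) did not pass 2-fold. The protease inhibitor Slpi† went from 1.34 to 19.0 and the goblet cell gene Retnlb from 21.6 to 48.3. The transcript of the phospholipase Pla2g2a went from 0.135 to 0.725. A probe reads RNA, and whether a working enzyme is made in this strain was not tested. The cornified envelope proteins Sprr2h (at least 23.8-fold higher) and Sprr1a† (0.920 and 3.01) were higher as well. On the other side Itln1†, an intelectin that binds microbial sugars, was 4.64-fold lower (1.41 and 0.303, and -2.40 on the log2 scale outside the noisy rows), and Ang4†, an antimicrobial ribonuclease, went from 13.6 to 5.19.

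Reg1 and Reg2 were higher too, from 0.0503 to 1.22 and from 0.0431 to 2.60, and both are also genes of the exocrine pancreas. They are counted among the pancreatic genes below as well. Whether their signal comes from the colon wall was not tested.

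Of 23 measured goblet cell genes 1 was lower and 0 higher, against 5.27% and 3.57% of all genes, and 10 lay above 0. Outside the noisy rows 2 of 15 were lower and 0 higher, against 4.37% and 2.69% of all genes there, and the median was -0.04. Muc2, the mucin that forms the mucus layer, went from 67.8 to 35.1 and the membrane mucin Muc3 from 86.0 to 48.3, both under 2-fold. St6galnac1, which caps mucin sugars with sialic acid, was 2.29-fold lower. The goblet cell factors Spdef† (-0.15) and Atoh1† (-0.32) and the secreted proteins Tff3 (0.40), Agr2 (0.40) and Clca1 (-0.19) stayed under 2-fold.

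In the absorptive colonocytes 3 of 38 genes were lower, against 5.27% of all genes, and none higher. The median was -0.17, -0.44 outside the noisy rows and -0.35 with quantile normalization. The chloride and bicarbonate exchanger Slc26a3 went from 23.2 to 10.1 and the phosphate carrier Slc20a1 from 29.6 to 12.8. The sodium channel subunits were all below 0: Scnn1a† at -0.60, Scnn1b at -0.52, and Scnn1g† at least 3.52-fold lower. The chloride channel Cftr (0.319 and 0.159) stayed just under 2-fold, the sodium and proton exchanger Slc9a3 was at -0.58 and the bicarbonate channel Best2† at -0.81. Structural and enzyme genes of the same cells were closer to 0, with Krt8† at 0.27, Vil1 at -0.05, Car4 at 0.08 and Guca2a at 0.26.

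Of 37 further transport genes 1 was higher, Slc51b (3.05 and 6.11), which exports bile acids, and 2 were lower: the peptide carrier Slc15a1† (0.665 and 0.277) and Slc37a2† (4.05 and 1.61). The drug efflux pumps Abcb1a (-0.81) and Abcb1b† (-0.85) lay below 0. Claudin 4, Cldn4 (0.128 and 0.284), and Cldn8† (2.65 and 5.49), which seal the space between cells, were higher. Cldn2 (0.18), Ocln (0.03), Tjp1 (-0.37), Cdh1 (-0.15) and Epcam (0.18) were close to 0. The third junction gene past 2-fold was the gastric claudin Cldn18† (at least 3.32-fold higher).

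A few crypt stem cell genes were lower. Ascl2, the transcription factor that maintains these cells, went from 3.19 to 0.982, Lgr5 from 0.524 to 0.194 and the Wnt target Axin2 from 0.292 to 0.145. These 3 of 27 members passed 2-fold, none was higher, and all 3 were measured outside the noisy rows. Some other Wnt targets lay below 0 without passing, with Rnf43 at -0.83, Sox9 at -0.75 and Znrf3† at -0.95. The list went both ways, and 10 of the 27 members lay above 0, the highest at 0.71. Other genes of the stem cell list stood near 0, such as Smoc2 (-0.17), Ephb3 (0.01), Ephb2 (0.05), Lgr4 (-0.04) and Cd44 (0.17). In the stroma that feeds these cells, the Wnt amplifier Rspo1 went from 0.128 to 0.322 while Rspo3 was at 0.44, under 2-fold, and the BMP antagonist Grem1 from 2.15 to 5.04. Ligands of the activin arm were higher as well, Inhbb† at 1.86 and Inhba at 1.20, while the BMP targets Id1† (0.02) and Id3† (-0.01) were near 0.

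Genes of regenerating epithelium were higher in 15 of 35 cases, with a median of 0.72 and 32 above 0. Ly6a (Sca-1), which marks the fetal-like state of healing crypts, went from 6.76 to 36.8 and its neighbour Ly6c1 from 23.9 to 79.5. The annexin Anxa8 (9.86 and 21.7) and the calcium-binding S100a11 (4.43 and 10.3) were higher with DSS, and Anxa1 (21.2 and 37.4) stayed under 2-fold. Plaur† (2.01) and Msln† (2.14) belonged to the larger ratios. Clusterin, Clu, which marks the revival stem cell, was at 8.09 and 8.12 on both sides, and the YAP targets Ccn1† (0.26) and Ccn2† (-1.10) were not higher.

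Of the list of EGF family ligands and ErbB receptors, 8 of 21 were higher. Ereg went from 0.343 to 1.79, Hbegf from 0.595 to 1.48, Areg† from 0.881 to 1.95, Epgn from 0.0265 to 0.0609 and the neuregulin Nrg1 from 0.666 to 1.75. The receptors Egfr (0.12) and Erbb2 (-0.20) did not pass 2-fold. The feedback phosphatase Dusp6 (3.13 and 6.33) and the target Phlda1 (2.74 and 5.92) did, as did the receptor Erbb4† (at least 2.70-fold higher). Tgfa (0.10) and Egf (-0.89) were not higher.

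Most cell cycle genes lay above 0, 24 of 28, with a median of 0.49, although only 2 passed 2-fold, Rrm2 (1.13 and 2.52), a subunit of the enzyme that makes DNA precursors, and Birc5† (2.01-fold). Mitotic genes such as Aurka† (0.99), Plk1 (0.86) and Ccna2 (0.83) were near 2-fold, whereas Mki67 was at -0.05 and Mcm2 at 0.09. In the KO pools the median was 0.06. Among death genes Ripk3 (1.87 and 6.14) and Mlkl (0.745 and 2.10), the kinase and the pore former of necroptosis, were higher, as was the survival gene Bcl2a1d (1.75). The p53 targets Cdkn1a (-0.13), Mdm2 (-0.18), Ccng1 (0.13) and Phlda3 (0.22) were close to 0.

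Metabolic lists had small medians. Of 20 cholesterol synthesis genes 19 lay above 0 and 1 passed 2-fold, Fdps (7.85 and 16.5). The median was 0.65, 0.54 with quantile normalization and -0.24 in the KO pools. Hmgcs1 (13.5 and 21.5) and Sqle† (5.87 and 9.24), enzymes of the pathway, were under 2-fold. All 29 oxidative phosphorylation subunits lay above 0 with a median of 0.37, but quantile normalization gave 0.15 and the KO pools -0.15. Ribosomal protein genes had a median of 0.26, and 0.04 with quantile normalization. Glycolytic and hypoxia genes were at 0.25, and 0.02 with quantile normalization, with 2 higher, the bifunctional enzyme Pfkfb3 (0.515 and 1.22) and the leukocyte hexokinase Hk3 (0.0320 and 0.0795). The reference genes, which are meant to stay level, had a median of 0.40 and 0.20 with quantile normalization, so a shift of this size cannot be told apart from scaling.

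Fatty acid genes centred on 0.01, with Scd1 (0.886 and 2.77), the desaturase of fat cells and gut, as the single member past 2-fold. The regulators Ppara (-0.62) and Ppargc1a† (-0.93) lay below 0. Drug-metabolising genes went both ways: Cyp2e1 was higher (0.298 and 1.56), and Cyp2f2† (3.60 and 1.22), Fmo2† (1.25 and 0.503) and the xenobiotic receptor Nr1i3 (0.167 and 0.0533) were lower. Of the stress response list, 4 of 24 were higher: the asparagine synthetase Asns† (4.34 and 8.81), the serine synthesis enzymes Phgdh† (1.20 and 2.50) and Psat1 (0.568 and 1.36), and Chac1 (0.286 and 0.585), which breaks down glutathione. The transcription factors Atf4 (0.38) and Ddit3† (-0.28) and the pseudokinase Trib3† (0.50) did not pass. Chaperones of the endoplasmic reticulum did not pass 2-fold (Hspa5† 0.30, Xbp1 0.34). Of prostaglandin genes, Ptgs2, the inducible cyclooxygenase, went from 0.115 to 0.371, while its constitutive relative Ptgs1† was at -0.63 and Hpgd†, which inactivates prostaglandins, at -0.67. Among phospholipases A2, Pla2g5† (2.32 and 5.40) was higher and Pla2g10† was at 15.8 and 19.0.

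Circadian genes were the list with the largest share of lower genes among the 63 lists. Of 19 measured members 8 were lower and 1 higher, the median was -0.95, and outside the noisy rows 7 of 13 were lower. Of the negative limb, Per2 went from 0.739 to 0.114, Per3 from 0.108 to 0.0228, Ciart from 0.497 to 0.113 and Per1 from 8.29 to 2.37. Per1 had a second probe at -0.27, so its size depends on the probe. The output factors Tef (16.7 and 7.57) and Hlf (0.722 and 0.285) and the repressor Cry2 (4.76 and 2.11) were lower, and Dbp (25.3 and 12.7) stayed just under 2-fold. Bhlhe41†, a repressor, was at least 2.11-fold lower, with the DSS array not well above background. The activators Arntl (0.89) and Npas2† (0.83) lay above 0 under 2-fold, and Nfil3†, which opposes Dbp, was 4.25-fold higher. Clock† (-0.06) and Nr1d1 (-0.31) were close to 0. No source used here states the hour of dissection, and time of day and treatment cannot be told apart.

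The activators of this loop bind the E-box CACGTG, and 5 of 16 measured clock genes with a promoter in the table held it in the 250 bases before the start, against 6.05% of all promoters. They were Bhlhe41†, Ciart, Cry1†, Per1 and Tef. Ciart held 3 matches and Per1 held 1, shown in capitals.
Ciart, chr3:95882229-95882478, - strand: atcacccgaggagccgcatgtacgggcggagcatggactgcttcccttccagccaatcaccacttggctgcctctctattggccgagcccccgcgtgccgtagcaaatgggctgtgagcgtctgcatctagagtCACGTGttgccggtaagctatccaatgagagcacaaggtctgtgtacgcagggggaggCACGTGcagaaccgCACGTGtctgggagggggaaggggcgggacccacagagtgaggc
Per1, chr11:69098699-69098948, + strand: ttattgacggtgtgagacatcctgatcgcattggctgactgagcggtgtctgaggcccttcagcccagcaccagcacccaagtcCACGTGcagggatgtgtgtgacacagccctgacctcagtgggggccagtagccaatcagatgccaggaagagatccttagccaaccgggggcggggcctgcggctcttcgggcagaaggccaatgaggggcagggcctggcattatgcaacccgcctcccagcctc
Both genes were lower with DSS in WT and in the KO pools (Ciart -2.72 and Per1 -1.08 on the log2 scale in KO), while Cry1†, which also holds the letters, was at -0.75 in WT and did not pass 2-fold.

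Glucocorticoid-responsive genes were lower in 5 of 17 cases and higher in none. Sgk1†, a kinase that aldosterone and cortisol induce, went from 14.9 to 6.14 and Tsc22d3 from 6.73 to 3.35, while Fkbp5† stood at -0.24 and the receptor Nr3c1 at -0.07. Outside the noisy rows 2 of 9 were lower. Immediate early genes, which respond within minutes of a stimulus, included Egr2 (0.0277 and 0.103) and Egr1† (0.732 and 2.37) among the higher genes, with Fos at 0.39 and Jun at -0.06.

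Most smooth muscle genes lay below 0, and 2 of 23 were lower past 2-fold, the myosin Myh11 (8.04 and 3.36) and the calcium store protein Casq2 (0.209 and 0.0997), and the median was -0.34. The abundant contractile genes Actg2 (-0.11), Tagln† (0.14) and Cnn1 (0.04) were close to 0. Neuronal and glial genes centred on -0.13, with Tac1 (3.65 and 7.37), the precursor of substance P, and the glial filament Gfap (0.0627 and 0.133) higher, and Uchl1 (-0.09) and Snap25 (-0.01) near 0. The pacemaker cell channel Ano1 was at -0.85.

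Hormone genes of enteroendocrine cells lay above 0 in 15 of 18 cases with a median of 0.60. Tph1, which makes serotonin, went from 1.49 to 3.06, Cck† from 1.49 to 3.19 and Iapp from 0.253 to 0.550. Secretin (Sct 0.92), glucagon (Gcg 0.70) and peptide YY (Pyy 0.66) lay above 0 without passing 2-fold. Quantile normalization gave a list median of 0.41. Tuft cell genes were on the other side of 0 with a median of -0.24, Dclk1 at -0.31 and Trpm5† at -0.53, none was lower past 2-fold, and the succinate receptor Sucnr1 was higher (0.0229 and 0.0549).

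Genes of organs outside the colon wall differed between the pools. Of 27 measured acinar pancreas genes 19 were well above background in naive and 27 in DSS colon, 21 were higher and none lower. Several pancreatic enzymes were not well above background in naive colon and were measured with DSS. Among them were the trypsin Try5 at 5.04 (at least 307-fold higher), the amylase Amy2a5† at 13.2 (at least 806-fold higher), Cpa1† at 2.94 and the lipase Pnlip† at 0.905. Other pancreatic enzymes were well above background on both arrays, such as Amy1† (0.126 and 4.40), Ctrb1† (0.139 and 4.56) and Cpb1 (0.0460 and 1.75). A second probe of Amy2a5† stood at a log2 ratio of 5.97, so the size of its ratio depends on the probe. The summed signal of the list was 220.0 in naive and 322 in DSS, most of it from Zg16†, Sycn† and Spink1, which were bright in both pools and not past 2-fold. Of these, Zg16† is also counted with the secreted defence genes of the epithelium, so the sum is no measure of pancreatic RNA. Of 5 measured islet genes 1 was higher, Iapp at a log2 ratio of 1.12, which is also counted with the enteroendocrine genes. The islet genes Ins1† (0.0288 and 0.0230) and Ins2 (0.236 and 0.208) were under 2-fold apart. In the KO pools 14 of the acinar genes were higher and 4 lower.

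Fat cell genes were higher in 8 of 16 cases, all measured on both arrays, with a summed signal of 36.7 in naive and 66.1 in DSS. Adiponectin, Adipoq, went from 0.143 to 1.55, resistin, Retn, from 0.170 to 1.81, Cfd† from 1.48 to 15.5 and the lipid droplet protein Plin1† from 0.0372 to 0.274. Haemoglobin genes were higher (Hba-a1† 3.12 and 7.01, Hbb-bt† 1.46 and 4.26), while the summed erythrocyte list was 67.2 and 65.9, carried by Car2, a colonocyte gene. Skeletal muscle genes were lower in 3 of 14 cases, the myosins Myh2 (0.242 and 0.0341) and Myh1 (0.186 and 0.0860) and Actn3†, with a summed signal of 6.36 and 4.92. The part of pancreas, fat, blood or skeletal muscle in any ratio above was not tested. Genes such as Reg1, Reg2, Zg16†, Iapp, Car2, Cfd† and Scd1 stand in these lists and in lists of the colon wall.

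The lists whose median has not been given are read against the -0.01 of all genes. Among immune lists the median was 1.09 for CXC chemokines, 1.20 for CC chemokines, 0.31 for their receptors, 0.86 for the interleukin-1 family, 0.29 for the interleukin-6 family and 0.59 for the TNF family. It was 0.51 for pattern receptors, 0.34 for T and NK cells, -0.25 for B and plasma cells and 1.04 for mast cells and eosinophils. Class I genes had 0.56, class II genes 0.51, complement genes 0.49 and matrix proteases 0.89. Dendritic cell and T helper genes, which include the lymph node receptor Ccr7, had 2 of 12 higher with a median of 0.21. Checkpoint, tryptophan and arginine genes had 6 higher and 0 lower of 12 with a median of 1.03. Oxidase and antioxidant genes had 3 higher and 0 lower of 22 with a median of 0.46. Metal and iron genes had 2 higher and 0 lower of 16 with a median of -0.11. Serpin and coagulation genes had 6 higher and 0 lower of 24 with a median of 0.32. Matricellular and stromal genes had 5 higher and 2 lower of 33 with a median of 0.26. Endothelial and adhesion genes had 3 higher and 0 lower of 20 with a median of 0.06. In the epithelium, the defence genes had 11 higher and 2 lower of 22 with a median of 0.92. Junction genes had 3 higher and 0 lower of 24 with a median of 0.17, and 0.01 with quantile normalization. Wnt ligands and inhibitors had 1 higher and 1 lower of 23 with a median of 0.01. BMP, activin and TGF beta genes had 3 higher and 1 lower of 28 with a median of -0.15. EGF ligands and receptors had 8 higher and 0 lower of 21 with a median of 0.12. Death and p53 genes had 3 higher and 0 lower of 22 with a median of 0.36. Stem cell genes had a median of -0.25, goblet cell genes -0.15, other transport genes -0.19 and regional genes -0.19. Drug-metabolising genes had 2 higher and 3 lower of 36 with a median of -0.22. Stress response genes had 4 higher and 0 lower of 24 with a median of 0.32, and 0.15 with quantile normalization. Immediate early genes had 3 higher and 0 lower of 22 with a median of 0.32, and 1 higher of 16 outside the noisy rows. Prostaglandin and leukotriene genes had 2 higher and 0 lower of 22 with a median of 0.14. Phospholipases A2 had 2 higher and 1 lower of 23 with a median of 0.13. Glucocorticoid-responsive genes had a median of -0.24, small intestinal genes -0.41, islet genes -0.12, acinar genes 3.20, fat cell genes 1.05, erythrocyte genes 0.99 and skeletal muscle genes -0.33. Outside the noisy rows some medians were smaller, such as 0.50 for CXC chemokines, 0.38 for epithelial defence genes and 0.35 for erythrocyte genes. Others were larger, such as 0.69 for serpin and coagulation genes and 1.80 for checkpoint, tryptophan and arginine genes. The medians of the metal, Wnt, endothelial, enteric nerve, fatty acid and islet lists changed sign under another scaling or filter, so no direction is read for them.

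The extremes over all genes mixed these groups. Of the 20 genes with the highest ratio among those well above background on both arrays, 7 lay in the noisy rows. They comprised leukocyte and cytokine genes (S100a9†, Il1b, Il11), chemokines (Cxcl9†, Cxcl10, Cxcl5†, Ccl2, Ccl8), metalloproteinases (Mmp10†, Mmp3, Mmp13), acute phase and defence genes (Hp, Saa3, Slpi†), the GTPase Tgtp2 and the pancreatic genes Reg2, Reg1, Cpb1, Amy1† and Ctrb1†. Of the 20 lowest, 16 lay in the noisy rows, including Hoxc10† (0.105 and 0.0127) and the brain gene Myt1l† (0.129 and 0.0158). The 4 outside were Myh2, Per2, 0610039H22Rik (0.135 and 0.0223) and Nat8f5 (0.102 and 0.0182). All 10 of the largest lower bounds lay in the noisy rows.

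With the rows left out, the lowest genes well above background on both arrays included the clock genes Per2, Per3 and Ciart, the brush border gene Sis, the stem cell factor Ascl2, the hedgehog antagonist Hhip (1.00 and 0.279) and the imprinted transcript Kcnq1ot1 (0.164 and 0.0382). This list was drawn up after the values were seen. The highest genes outside the rows, beyond those already named, included Adgrf1 (0.0463 and 0.561), an adhesion receptor, Mfsd2a (0.234 and 1.72), which carries lysophospholipids, and the ubiquitin ligase Rnf183 (6.19-fold higher).

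The KO arrays give a separate pair of pools for the same treatment and share no array with WT, although they lie on the same slide. Outside the noisy rows, 269 of the 361 genes higher in WT (74.5%) were also past 2-fold higher in KO, which is 39.4% of the 683 genes higher there. Of the 587 genes lower in WT, 230 (39.2%) were lower in KO, 39.2% of the 586 there. Inside the rows the shares of the WT genes were 41.5% and 23.5%. The sign was the same in KO for 94.5% of the higher and 95.1% of the lower genes outside the rows. Across 12373 genes outside the rows the log2 ratios of both genotypes had a Pearson correlation of 0.70, and across 9685 genes inside 0.61. Genes are not independent replicates, and the 4 arrays share probes, slide and processing, so this is a description.

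Several groups had values in WT that were not those of KO. Cholesterol synthesis, cell cycle and oxidative phosphorylation lists lay above 0 in WT and near or below 0 in KO, as given above. The reference genes (0.40 in WT and -0.08 in KO) and ribosomal genes (0.26 and -0.09) did the same, so no difference between genotypes is read for those lists. Saa3 was at 4.02 in WT and 6.23 in KO, Lcn2 at 2.03 and 4.98, Serpina3n at 2.94 and 5.92. The absorptive colonocyte list had 3 members lower in WT and 15 in KO, where 1140 and 1022 of all 21617 genes were lower. The reference genes also stood lower in KO, so no difference between genotypes is read for this list either. The GTPases had medians of 1.91 and 2.07, and the clock genes -0.95 and -1.02. None of these differences between genotypes was tested, since each genotype and treatment has 1 array.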

How the data were processed

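RNA of 3 mixed colons per group, 200 ng, was labelled with Cy3 and hybridised to Agilent mouse arrays, 1 array per group, per the labels' protocols. The deposited scanner files hold an intensity per spot after background subtraction, made with Agilent Feature Extraction 11.5.1.1 per the submitters' processing notes. A series table was deposited too, with a signal for each spot that the values show to be the processed intensity over a 75th percentile. Its scale and direction are known from this match.

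Control spots and outlier spots (131 and 132 on the WT arrays) were left out, and 0 spots were saturated. Of the spots, 67.7% and 70.4% were well above background, and the number of arrays limits the precision. Log2 intensities were set against each array's 75th percentile, spots of a probe were averaged, and the brightest probe stood for a gene (21617 genes). Of these, 5081 had several probes and 516 had probes at least 2-fold apart. Names came from RefSeq accessions for 16069 genes, from symbols for 1115 and older symbols for 168, and 4265 kept the file's name. With 1 array per group there was no test. Named genes are the 20 highest and 20 lowest well above background on both WT arrays, the 10 largest bounds each way, members of 63 lists (1271 of 1367 genes measured), and genes outside rows 190 to 410 said to be added. The members and lists were chosen with earlier results of these data known. Alternatives were 8 planned settings and 2 that leave out the noisy rows. The ratio was tested on simulated data in which only brighter genes were changed and the added noise was equal in all rows. That test does not bear on dim genes, bounds or the noisy rows. Python 3.11.15, pandas 2.3.3 and R 4.3.3 with limma 3.58.1 were used.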

Additional observations from a re-analysis of the deposited data

Results flagged for a closer look

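Among the genes named by rank, 2 were past 2-fold lower in WT and past 2-fold higher in KO. Plekhg4†, which encodes an exchange factor of small GTPases, had a log2 ratio of -2.76 in WT and 1.42 in KO. Tmem190†, a small membrane protein gene, had -2.51 in WT and 4.21 in KO. Both probes lie only in slide rows 190 to 410, and the difference between genotypes was not tested.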

How the results depend on the processing

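No paired analysis was possible because each group has 1 array and no test was run. Counts of genes past 2-fold were 771 higher and 1140 lower. Leaving out slide rows 190 to 410, chosen after seeing the data, gave 361 and 587, and also asking for signal well above background on both WT arrays gave 282 and 512, in both cases over fewer genes. Without filter and bounds the counts were 1288 and 1987, and with normexp and quantile normalization 559 and 495. Median scaling moved the median of all genes from -0.01 to 0.13 and the counts to 967 and 845, so that 53.4% of counted genes were higher instead of 40.3%. Quantile normalization gave 857 and 935 (47.8%). The cause was not tested. Among the named genes past 2-fold, Bhlhe41 changed sign, at 0.12 without filter and bounds, and no other did under the settings run; named ratios close to 0 were not counted here and can change sign with the scaling. The list medians changed sign in some setting for 6 of 63 lists: metal and iron, Wnt ligands, endothelium, enteric nerves, fatty acids and islets. Signal over background limits 1548 genes to a bound instead of a ratio.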
